A study of Mus musculus with 16 samples.

Results

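Open chromatin at gene ends was followed in 9942 regions called in all 16 ATAC-seq libraries of mouse bone marrow. ATAC-seq marks open DNA by cutting and tagging it with the Tn5 transposase. Overlapping or touching peaks of the 16 deposited peak lists were joined into 102496 regions on the main chromosomes, and 24955 of these were called in all 16 libraries. The 9942 regions were selected on 2 criteria, a peak call in all 16 libraries and overlap with a window reaching 1000 bp to either side of an end of a RefSeq protein-coding gene. They made up 39.8% of the regions called everywhere, and the remaining 15013 shared regions served as the comparison. Calls in every library are part of the selection, so a region that lost its call in a library could not be among them.

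Male C57Bl/6 mice gave the marrow, from which cells positive for CD3, CD4, B220, Ter119 and Gr1 were removed. The submitters name this lineage-negative fraction haematopoietic stem cells, although committed progenitors remain in such a fraction too. Diabetic mice had received streptozotocin, a toxin of insulin-producing cells, and control mice no treatment. Marrow samples of 4 diabetic and 4 control mice were split: for baseline libraries cells were lysed without culture, and for the others they spent 6 h in culture with IL-1β, the inflammatory cytokine interleukin-1β, at 10 ng/mL. Each of the 4 groups, control baseline, control IL-1β, diabetic baseline and diabetic IL-1β, thus had 4 libraries. IL-1β and culture came together, so their parts in any difference cannot be told apart.

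A promoter is the stretch of DNA around a transcription start at which RNA polymerase and its general factors assemble. At most promoters of genes used by many cell types the DNA is rich in CG dinucleotides and is held free of nucleosomes. ATAC-seq reads pile up there in a peak, whose highest point is its summit. Names of regions below give the protein-coding gene whose end lay nearest to the summit, which is a matter of position and shows nothing about the gene's output.

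Libraries held 37543 to 72525 peaks, and background reads per window, which stand in for depth, ran from 0.856 to 1.71. The deposited fold and p-value of a summit give its whole number of reads, which were recovered for all but 1 of 1057251 summits. 1 library stood apart. In diabetic baseline replicate 4 the median summit of the promoter-near regions exceeded that of the other shared regions by 1.35 on the log2 scale, against 0.96 to 1.17 in the other libraries. A bulk library cannot separate a change in the share of cells that are open at a region from a change within cells.

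RefSeq windows of 300 bases around transcription starts, 250 before and 50 after, are shown (build GRCm38.p6, 5′ to 3′ along the gene). They belong to some of the regions that changed most with IL-1β and to some of the strongest ones. Capitals mark matches to any of the 14 motif words listed with the motif counts. The first set holds 3 of the 12 largest rises after IL-1β, Kcnn4 (chr7:24370013-24370312, plus strand), Cyba (chr8:122432891-122433190, minus strand) and Lcn2 (chr2:32387690-32387989, minus strand). In these 3 windows the capitals are GC boxes and, in Kcnn4, an E-box. Regions at Dmpk, S100a5 and Lrp1 rose more than those at Cyba and Lcn2 and also lay near a listed start, but are not shown.
Kcnn4: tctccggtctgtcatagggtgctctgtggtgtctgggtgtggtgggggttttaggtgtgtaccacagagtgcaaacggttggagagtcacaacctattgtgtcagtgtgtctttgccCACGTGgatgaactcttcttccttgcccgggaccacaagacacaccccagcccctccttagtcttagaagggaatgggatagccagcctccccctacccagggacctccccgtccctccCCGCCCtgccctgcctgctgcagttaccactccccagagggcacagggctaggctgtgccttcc
Cyba: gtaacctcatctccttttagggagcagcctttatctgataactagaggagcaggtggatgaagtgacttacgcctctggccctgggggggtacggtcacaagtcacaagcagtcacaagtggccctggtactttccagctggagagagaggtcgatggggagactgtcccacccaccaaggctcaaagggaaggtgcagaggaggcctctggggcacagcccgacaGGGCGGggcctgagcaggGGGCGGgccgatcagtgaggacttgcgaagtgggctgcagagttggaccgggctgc
Lcn2: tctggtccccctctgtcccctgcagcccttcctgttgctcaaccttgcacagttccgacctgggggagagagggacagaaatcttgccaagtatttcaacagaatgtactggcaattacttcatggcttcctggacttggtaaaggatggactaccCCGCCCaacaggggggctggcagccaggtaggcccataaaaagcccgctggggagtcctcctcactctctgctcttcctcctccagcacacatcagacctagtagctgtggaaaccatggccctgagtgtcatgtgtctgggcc

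The second set holds the largest falls, Spag6l (chr16:16829314-16829613, minus strand), Dlec1 (chr9:119102259-119102558, plus strand) and Lrrc70 (chr13:106836253-106836552, minus strand). The capitals are a cyclic AMP response element (CRE) in Spag6l and an ETS core in Dlec1, and the Lrrc70 window held none of the words.
Spag6l: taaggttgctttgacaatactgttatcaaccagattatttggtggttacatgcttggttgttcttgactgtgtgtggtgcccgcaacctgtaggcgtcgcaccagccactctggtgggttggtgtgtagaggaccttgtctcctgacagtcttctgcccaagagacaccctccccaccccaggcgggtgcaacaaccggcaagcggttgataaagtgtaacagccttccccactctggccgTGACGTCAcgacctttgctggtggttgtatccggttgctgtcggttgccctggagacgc
Dlec1: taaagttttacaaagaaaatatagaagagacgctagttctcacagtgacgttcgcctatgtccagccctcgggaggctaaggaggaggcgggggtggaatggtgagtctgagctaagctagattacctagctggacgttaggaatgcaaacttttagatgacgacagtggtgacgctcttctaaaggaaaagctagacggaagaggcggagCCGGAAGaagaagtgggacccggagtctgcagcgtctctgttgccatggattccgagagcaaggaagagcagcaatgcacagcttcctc
Lrrc70: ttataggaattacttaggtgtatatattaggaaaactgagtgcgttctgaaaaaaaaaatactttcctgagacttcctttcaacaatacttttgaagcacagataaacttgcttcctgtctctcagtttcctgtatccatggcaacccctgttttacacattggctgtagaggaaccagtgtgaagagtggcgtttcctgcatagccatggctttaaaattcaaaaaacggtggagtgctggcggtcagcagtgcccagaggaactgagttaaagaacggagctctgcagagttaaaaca

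The third set holds Gpbp1 (chr13:111490078-111490377, minus strand) and Vkorc1l1 (chr5:129941859-129942158, plus strand), both among the 5 regions with the most reads. The region of Zfp654 and Cggbp1 had more reads than that of Vkorc1l1 and also lay near a listed start, but is not shown. The Gpbp1 window held 8 GC boxes and a CRE, and the Vkorc1l1 window 6 GC boxes and an NRF1 word.
Gpbp1: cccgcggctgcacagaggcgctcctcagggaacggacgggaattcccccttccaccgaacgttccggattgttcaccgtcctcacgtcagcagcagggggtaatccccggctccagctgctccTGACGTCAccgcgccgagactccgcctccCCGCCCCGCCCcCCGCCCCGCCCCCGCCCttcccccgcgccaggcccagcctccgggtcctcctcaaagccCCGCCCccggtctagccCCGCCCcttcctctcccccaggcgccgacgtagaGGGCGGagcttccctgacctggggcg
Vkorc1l1: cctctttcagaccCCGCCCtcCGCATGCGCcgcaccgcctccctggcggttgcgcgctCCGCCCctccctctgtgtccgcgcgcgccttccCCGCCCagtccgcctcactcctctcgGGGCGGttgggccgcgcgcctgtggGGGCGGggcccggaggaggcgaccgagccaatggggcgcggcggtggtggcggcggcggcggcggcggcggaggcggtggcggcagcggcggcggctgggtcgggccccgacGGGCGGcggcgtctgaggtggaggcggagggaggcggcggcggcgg

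The label promoter-near held for most of the regions. Of 9942, 7488 (75.3%) reached within 1000 bp of a transcription start listed in the RefSeq promoter table. A further 654 (6.58%) lay only at the far end of their genes, and 1800 (18.1%) could not be placed because the table listed no start for their gene. The regions named below at Il10, Arap3, Rtkn2, Zfp445, Relb, Spi1, Nfe2, Polr2k, Ripk2, Tsc22d2 and Rdh10 were among these 1800. At least 1 of the 9942 regions stood at an end of 10622 of 21887 protein-coding genes. Most regions, 8162, were near the ends of 1 gene only, and 722 reached within 1000 bp of starts of genes that point away from each other.

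The highest summit sat just before the start. Among the 7488 regions with a listed start, the median place of the mean highest summit was -36.0 bp, and the interquartile range of the regions ran from -87 to 11 bp. The summit was upstream of the start in 5247 regions (70.1%) and within 100 bp of it in 5136 (68.6%). Its place was steady between libraries: a region's highest summit deviated from its own median by 9.5 bp in the median region, against 12.5 bp in the other shared regions. Distances between libraries were taken only in the 2288 regions with 1 summit in every library. There, portions of the same mouse placed it a median of 14 bp apart, and so did libraries of different mice of 1 phenotype.

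**Figure D1:**
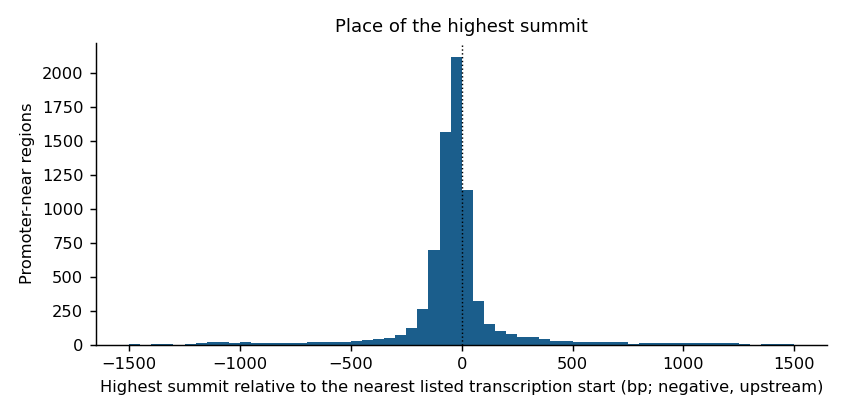
Number of promoter-near regions (vertical axis) by the distance of the mean highest summit from the nearest listed transcription start in bp (horizontal axis, negative upstream, bars of 50 bp, dotted line at the start), for 7488 regions. The bars peak just upstream of the start, with a median of -36.0 bp.

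Promoter-near regions were broader and stronger than the other shared regions in all 8 mice. Joined over the libraries, they spanned a median of 907 bp (5th to 95th percentile 440 to 1526 bp), against 570 bp (351 to 1141 bp) elsewhere. Within a library the median peak was 601 to 804 bp wide, against 320 to 463 bp, and averaged over mice this was 697 ± 38.03 bp against 392 ± 28.4 bp (SD, n = 8 mice). The median highest summit held 65.2 ± 6.78 reads against 30.9 ± 4.84, a ratio of 2.11. The median deposited fold over background was 10.9 ± 0.326 against 8.18 ± 0.603, and a region held 1.63 ± 0.0528 summits on average against 1.26 ± 0.0272. Each of these 4 differences had the same sign in 8 of 8 mice (two-sided exact sign-flip permutation test, p = 0.00781 for each, adjusted p = 0.00781, the smallest that 8 mice allow). The same regions were measured in every mouse, so these p-values speak of agreement between mice and not of a sample of regions. A wider region also overlaps a gene-end window more easily, so the selection itself favours width. How much of the difference this makes was not tested.

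**Figure D2:**
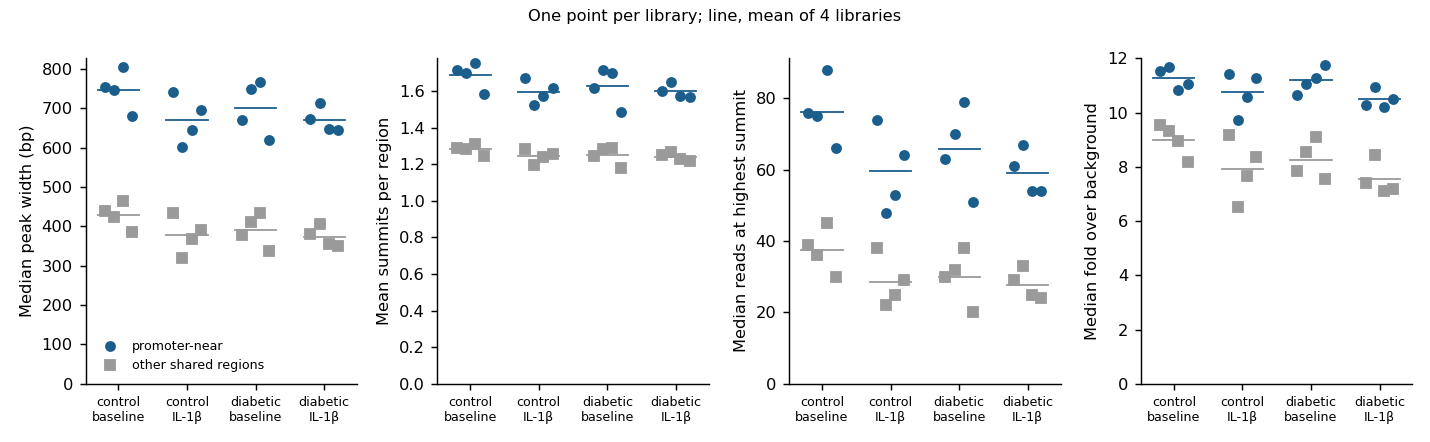
Median peak width in bp, mean summits per region, median reads at the highest summit and median deposited fold over background (vertical axes, from 0) for promoter-near regions (circles) and the other shared regions (squares), 1 point per library and 1 line per group mean, n = 4. In every library the circles lie above the squares; median widths were 601 to 804 bp against 320 to 463 bp.

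Within the set, position and strength went together. Regions at the far end of genes only were narrow and weak, with a median width of 596 bp and 33.3 scaled summit reads (reads after libraries were brought to equal medians), close to the 570 bp and 30.03 reads of the shared regions away from gene ends. Regions with a listed start had 928 bp and 68.5 reads. Those with divergent starts were the broadest class, with 1039 bp and 83.5 reads. A single summit in all 16 libraries was found in 2288 regions (23.0%), against 56.6% of the other shared regions, and in 50.8% of the far-end regions but 16.3% of the divergent ones. These are descriptions of classes that share libraries, and no test was made between them.

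The strongest regions stood at Ripk2, a kinase of the NOD receptor pathway, at Gpbp1, at the shared end of Zfp654 and Cggbp1, at Vkorc1l1, a relative of vitamin K epoxide reductase, and at Ypel5. Their mean scaled summit reads were 180 at Ripk2, 171 at Gpbp1, 167 at Zfp654, 165 at Vkorc1l1 and 161 at Ypel5. None passed the test for a change with IL-1β, with log2 changes of 0.14 to 0.19 and adjusted p from 0.182 at Vkorc1l1 to 0.419 at Zfp654. At Ripk2 diabetic baseline replicate 4 held 288 scaled reads while the other baseline libraries held 133 to 169. Without that library Ripk2, Gpbp1 and Vkorc1l1 passed, with adjusted p of 0.004, 0.011 and 0.020 (limma). With all libraries, cyclic loess scaling gave these regions log2 changes of 0.033, 0.057 and 0.060. Scaling by background reads gave -0.096, -0.078 and -0.079. None of these passed.

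Summit reads had a common upper end. The highest summit of any library held between 154 and 200 reads before scaling. A summit of at least 80% of its library's highest value occurred in at least 1 library in 633 promoter-near regions (6.37%), against 0.579% of the other shared regions, and in every library in 5. The sources used here do not give whether duplicate reads were removed, and the part of such a limit in these values was not tested.

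The broadest region covered 3448 bp at Gm20783, an uncharacterised gene, and had 7.62 summits on average. Csf2ra, the receptor chain for granulocyte-macrophage colony-stimulating factor, followed with 2924 bp, Arid1b, a subunit of a chromatin remodelling complex, with 2853 bp, Tsc22d2 with 2832 bp and Rhob, a small GTPase, with 2580 bp. Arid1b, Stat6 (a transcription factor of interleukin-4 signalling), Rdh10 (a retinol dehydrogenase) and Sp3 (a factor that binds GC boxes) also carried the most summits, 6.69, 6.19, 5.50 and 5.25. Of these regions Sp3 was called a rise with IL-1β (0.24 on the log2 scale, adjusted p = 0.0322, limma), but had -0.025 with libraries scaled by background reads. The broadest regions differed in reads: Arid1b averaged 58.1 scaled reads at its highest summit and Gm20783 127.

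Values just inside and outside the selection differed as follows. Of the regions called in 15 libraries, 745 of 5931 (12.6%) met the gene-end criterion, with a median width of 483 bp and 19.0 summit reads. Regions called in all 16 had 907 bp and 65.0 reads before scaling. By distance, 145 regions lying 900 to 1000 bp from a gene end had a median width of 631 bp, and 124 lying 1000 to 1100 bp away, just outside, 606 bp.

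Genes with housekeeping roles usually had such a region. Against 48.5% of all protein-coding genes, at least 1 stood at 39 of 39 genes for splicing factors, 73 of 77 for ribosomal proteins, 30 of 31 for proteasome subunits, 42 of 44 for RNA polymerase II and its general factors, 20 of 21 for aminoacyl-tRNA synthetases and 29 of 32 for DNA replication. Median scaled summit reads in these 6 lists were 72.2 to 84.2, against 64.4 in all promoter-near regions. Of lineage markers, 8 of 14 stem cell genes (among them Kit), 8 of 12 granulocyte-monocyte genes and 7 of 10 monocyte genes had one. Ly6a, Procr and Gata2 of the stem cell list and Mpo, Elane and Prtn3 of the granulocyte-monocyte list had none. The depleted antigens mark granulocytes (Gr1), erythroid cells (Ter119), B cells (B220) and T cells (CD3, CD4). Of genes of such cells, 10 of 12 neutrophil, 7 of 12 erythroid, 2 of 9 B cell and 2 of 11 T and NK cell genes had one; none of these antigens is specific to NK cells. These shares describe the lists; no test of them was made.

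Start windows inside the regions were rich in CG dinucleotides. Of 21263 windows in the promoter table, 8884 lay in 7087 of the regions. Their median GC content was 62.3%, against 51.3% in the 12379 windows outside. The ratio of observed to expected CG dinucleotides had a median of 0.812 inside and 0.282 outside, and it exceeded 0.6 in 82.2% and 22.8% of windows. The printed windows span this range, from 0.127 at Lcn2 and 0.226 at Kcnn4 to 1.01 at Vkorc1l1.

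Motif words were counted on both strands in windows of the same length, as exact letters that may overlap each other. The GC box word GGGCGG occurred in 70.5% of the windows inside the regions and in 46.2% of all windows. The ETS core word CCGGAAG occurred in 22.2% against 11.6%, and the NRF1 word GCGCANGCG in 16.5% against 8.58%. The E-box word CACGTG occurred in 11.3% against 7.84%, and the NF-Y word CCAATCA in 11.8% against 9.11%. Higher shares inside the regions were also found for the YY1 word AAGATGGCG (3.84% against 1.83%), the CRE word TGACGTCA (3.82% against 2.23%) and the ZNF143 word ACTACAA (4.73% against 3.60%). Some words were rarer inside the regions than over all windows. The TATA box word TATAAA stood in 5.81% against 12.6%, and the AP-1 word TGANTCA in 3.98% against 6.99%. The RUNX word TGTGGTT had 3.41% against 4.71%, and the GATA factor word AGATAAG 1.49% against 2.64%. Shares were near those of all windows for the PU.1 word GAGGAAGT (3.19% against 3.13%) and the NF-kB word GGANTTTCC (1.10% against 1.28%). A match is a run of letters and shows no binding, and GC-rich words are more frequent wherever GC content is high.

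**Figure D3:**
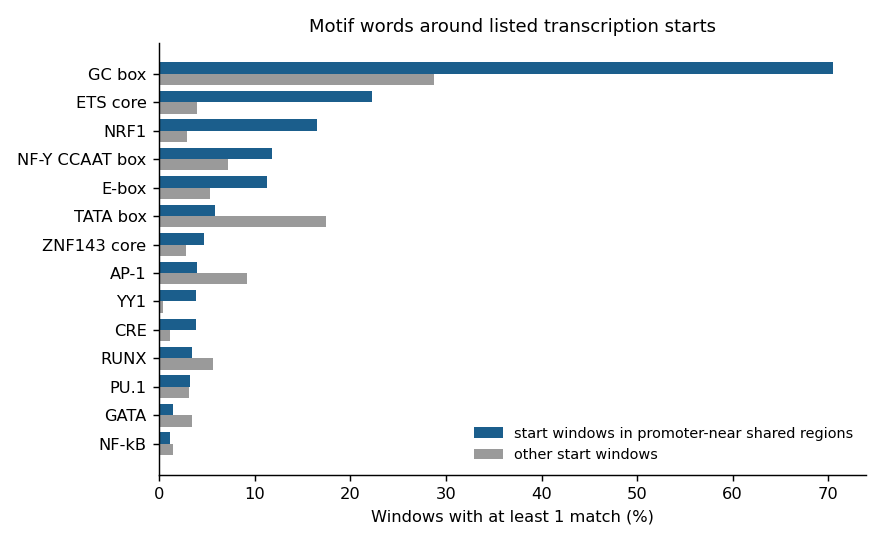
Share of 300-base start windows with at least 1 match to each of 14 motif words (horizontal axis, %), for 8884 windows inside promoter-near shared regions (dark bars) and 12379 windows outside them (grey bars). The GC box, ETS core and NRF1 words are more frequent inside, the TATA box and AP-1 words outside.

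IL-1β with culture was compared with baseline to ask which of these regions changed. Reads at the highest summit rose most at Hspb7 (a small heat shock protein), Ccdc97, Kcnn4 (a calcium-activated potassium channel) and Il10 (an anti-inflammatory cytokine). They fell most at Spag6l (a protein of the ciliary axoneme), Dlec1, Lrrc70 and Il18rap (a chain of the interleukin-18 receptor). At an adjusted p below 0.05 (limma, a linear model that shares variance between regions, on log2 scaled summit reads of all 24955 shared regions, Benjamini-Hochberg), 275 of the 9942 regions rose (2.77%) and 145 fell (1.46%). Over all shared regions 6.42% rose and 3.4% fell, and among the shared regions away from gene ends 8.85% and 4.68%. At an unadjusted p below 0.05 (limma), 989 promoter-near regions were higher and 441 lower (14.4%, against 22.7% of all shared regions). The median log2 change was 0.04 over the promoter-near regions and 0.03 over all. With the mouse as a replicate block 503 rose and 239 fell, and these held all 275 and all 145.

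The counts were sensitive to the zero point and to 1 library. With libraries scaled by background reads, every log2 change was lower by the same amount (-0.27), and 12 regions rose and 574 fell, the median log2 change of all shared regions moving to -0.24 and that of the promoter-near ones to -0.23. All 145 falls but only 12 of the 275 rises were called on that scale. Changes are therefore given relative to the median shared region. Cyclic loess scaling gave 257 rises and 272 falls, with 218 of the 275 and 141 of the 145 among them. Summing reads over all summits of a region gave 179 rises and 157 falls, of which only 120 and 82 were among the 275 and the 145. Without diabetic baseline replicate 4, 1028 rose and 235 fell, among them all 275 and all 145. Leaving out diabetic IL-1β replicate 3 gave 180 rises, control IL-1β replicate 3 183 rises and control baseline replicate 2 93 falls.

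Most changes were small. The median called rise was 0.39 and the median called fall -0.42 on the log2 scale, and 3 rises and 1 fall exceeded a factor of 2.0. Scaled reads were higher after IL-1β in 8 of 8 mice for 177 of the 275 and lower in 8 of 8 for 94 of the 145. Every IL-1β library lay above every baseline library in 52 of the 9942 regions, all of them called rises, and below in 27, of which 25 were called falls. Over all shared regions these shares were 1.58% and 0.645%. Conversely, the 95% confidence interval of the change lay within 0.5 log2 units of no change, a factor of 1.41, for 8836 regions (88.9%), against 57.6% of the other shared regions.

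**Figure D4:**
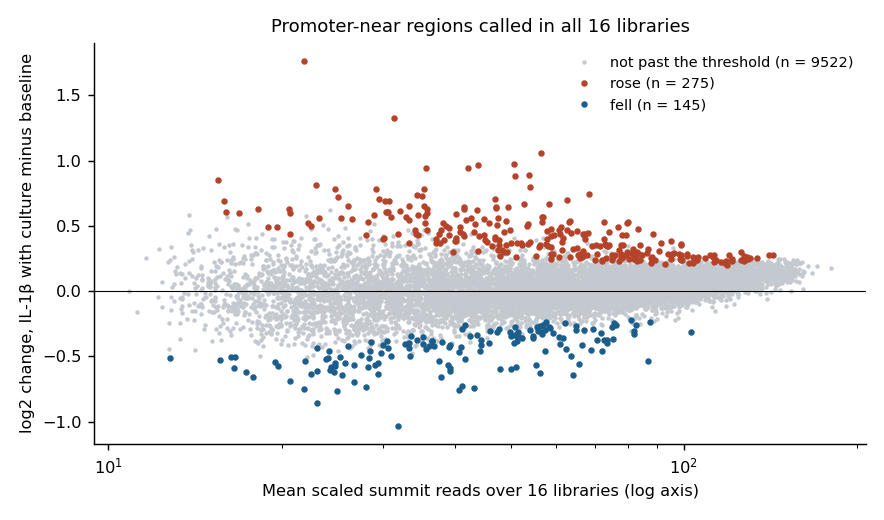
Change in each promoter-near region (vertical axis, log2, IL-1β with culture minus baseline) against its mean scaled summit reads over 16 libraries (horizontal axis, log scale), with 275 risen and 145 fallen regions coloured and 9522 others in grey. The spread narrows with reads, and called regions lie at the outer edges with log2 changes from -1.03 to 1.76.

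The share of called regions was smaller at promoters at every level of reads compared. Among regions with 40 to 60 mean scaled reads, 6.04% of 2035 promoter-near and 17.9% of 2820 other regions were called. Between 60 and 80 reads this was 4.75% of 1873 and 16.6% of 1104, and above 100 reads 1.68% of 2021 and 6.38% of 298. The SD of the log2 change in the 40 to 60 class was 0.17 at promoters and 0.27 elsewhere, while the median standard errors were 0.0963 and 0.107. Within mice, the mean absolute log2 difference between both portions in that class was 0.18 ± 0.052 at promoters and 0.24 ± 0.074 elsewhere (SD, n = 8 mice), smaller at promoters in 8 of 8 mice (two-sided exact sign-flip permutation test, p = 0.00781, the smallest possible). The 60 to 80 class gave 0.15 ± 0.048 and 0.20 ± 0.069, again in 8 of 8 mice (exact permutation p = 0.00781). This test was added after the shares had been seen.

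Among the classes by position, those with fewer reads held more calls. By reads alone this did not hold at the weak end. Called were 3.45% of promoter-near regions below 20 mean scaled reads, 4.86% from 20 to 30 and 6.53% from 30 to 40. Called were 8.72% of the far-end regions, 4.44% of those without a listed start, 3.78% of those with one and 2.08% of the divergent ones. Risen regions had a median of 58.8 scaled reads and fallen regions 41.6, against 65.1 in the uncalled ones. The median log2 change of all promoter-near regions was -0.039 at 20 to 30 reads, 0.022 at 60 to 80 and 0.10 above 100. Other shared regions had -0.024, 0.057 and 0.10. The part of this shift with reads in the difference between risen and fallen regions was not tested. Fallen regions were also narrower, with a median of 743 bp against 910 bp in uncalled regions, and risen ones had 877 bp.

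Hspb7 gave the largest rise, in a region at the far end of the gene (chr4:141425515-141426381). Scaled reads in control mice 1 to 4 were 8.64, 10.0, 7.44 and 9.81 at baseline and 31.9, 19.0, 27.4 and 36.2 after IL-1β. In diabetic mice 1 to 4 they were 8.05, 10.3, 12.8 and 11.6 at baseline and 32.9, 39.3, 40.5 and 44.3 after IL-1β. Every IL-1β library was above every baseline library, with a log2 change of 1.76 ± 0.15 (SE) and an adjusted p of 1.39e-07 (limma).

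Ccdc97 followed, also at the far end of its gene (chr7:25711758-25712260). Baseline libraries ran from 12.5 to 22.4 scaled reads with a median of 18.4, and IL-1β libraries from 24.4 to 60.8 with a median of 46.6, without overlap (log2 change 1.33 ± 0.15 SE, adjusted p = 4.42e-06).

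At Kcnn4 the summit lay 282 bp upstream of the start, outside the window printed above, in chr7:24369730-24370416. Control mice 1 to 4 had 28.3, 34.2, 35.2 and 38.3 scaled reads at baseline and 65.4, 67.7, 72.6 and 73.3 after IL-1β. Diabetic mice 1 to 4 had 37.2, 42.1, 40.9 and 36.3 at baseline and 74.3, 76.6, 87.1 and 93.7 after IL-1β. The groups were far apart, and the log2 change was 1.06 ± 0.083 (SE, adjusted p = 1.97e-08).

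Il10 and Dmpk, a kinase gene known from myotonic dystrophy, rose by almost as much. No start was listed for Il10, so its region, with the summit 1065 bp from the nearest gene end, could not be placed. The Il10 region held 24.2 to 40.3 scaled reads at baseline (median 35.0) and 53.3 to 74.4 after IL-1β (median 67.9), a log2 change of 0.97 ± 0.10 (SE, adjusted p = 2.15e-06). The Dmpk region held 20.4 to 35.2 (median 30.7) and 49.1 to 70.0 (median 57.3), a log2 change of 0.97 ± 0.12 (SE, adjusted p = 8.23e-06). Neither overlapped between baseline and IL-1β.

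Cyba encodes a subunit of the phagocyte NADPH oxidase, and its region (chr8:122432326-122433405), the source of the printed window, also reached an end of Mvd, an enzyme of sterol synthesis. Its summit lay 78 bp after the Cyba start. Baseline libraries held 26.2 to 42.6 scaled reads (median 40.1) and IL-1β libraries 62.0 to 85.3 (median 68.2), without overlap (log2 change 0.89 ± 0.094 SE, adjusted p = 2.15e-06). Which of both genes the change belongs to was not tested.

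Lcn2 encodes an iron-binding protein of neutrophil granules, and its summit lay 109 bp upstream of the start. Baseline libraries held 13.1 to 49.5 scaled reads (median 40.1), the lowest being diabetic baseline replicate 4, and IL-1β libraries 49.4 to 75.8 (median 65.1). The ranges overlapped by less than 1 read, and the log2 change was 0.88 ± 0.16 (SE, adjusted p = 4.98e-04). The log2 rise was 0.60 in control mice (adjusted p = 0.166) and 1.17 in diabetic mice (adjusted p = 0.004), and the difference between them was not past the threshold.

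The other rises among the 12 largest were at S100a5 and S100a6 (calcium-binding proteins that share 1 region), Lrp1 (an endocytic receptor), Tigit (an inhibitory receptor of T and NK cells), Cela1 (an elastase) and Arap3 (a regulator of small GTPases). Their log2 changes were 0.94, 0.94, 0.85, 0.82 and 0.80, each with higher reads in 8 of 8 mice. On the background scale Tigit and Cela1 kept a positive change but missed the threshold (adjusted p = 0.0572 and 0.0771). With reads summed over all summits, Tigit and Lrp1 lost their calls. The Arap3 region could not be placed at a start or a far end.

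Spag6l gave the largest fall, with its summit 28 bp upstream of the start (chr16:16828807-16829648). Scaled reads in control mice 1 to 4 were 35.3, 37.6, 42.6 and 41.2 at baseline and 21.3, 20.3, 14.3 and 26.9 after IL-1β. In diabetic mice 1 to 4 they were 37.2, 54.2, 35.2 and 58.2 at baseline and 19.1, 30.8, 15.9 and 20.3 after IL-1β. No IL-1β library reached the lowest baseline value, and the log2 change was -1.03 ± 0.16 (SE, adjusted p = 1.02e-04).

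Dlec1 and Lrrc70 fell at summits 18 and 67 bp upstream of their starts. The Dlec1 region held 25.7 to 34.6 scaled reads at baseline (median 29.5) and 10.7 to 21.5 after IL-1β (median 15.5), a log2 change of -0.85 ± 0.15 (SE, adjusted p = 5.16e-04). The Lrrc70 region held 27.1 to 52.3 (median 28.7) and 13.5 to 22.1 (median 18.7), a log2 change of -0.76 ± 0.14 (SE, adjusted p = 0.001). Both sets were separate between baseline and IL-1β, and the top Lrrc70 value, in diabetic baseline replicate 4, stood well above the rest.

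Il18rap fell by 0.76 on the log2 scale (± 0.12 SE, adjusted p = 1.50e-04) at a summit 1189 bp into the gene. Its baseline libraries held 33.4 to 65.8 scaled reads and its IL-1β libraries 23.3 to 38.1, with a small overlap. Cfap43, Dynlrb2 and Tmem107, which like Spag6l have roles in cilia, fell by 0.75, 0.69 and 0.66. No list of cilia genes was set up, and these were not tested as a group. Mgst1 (a glutathione transferase of membranes), 4921536K21Rik with Dusp18, Rtkn2, Zfp445 with Zkscan7 and Fam162b completed the 12, with log2 changes of -0.73, -0.74, -0.74, -0.69 and -0.66. The Tmem107 and Fam162b regions lay only at the far end of their genes, and those at Rtkn2 and Zfp445 could not be placed. All 12 falls passed on the loess scale as well. They also passed on the background scale, but that scale moves every log2 change by -0.27, so each fall is larger there by construction.

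**Figure D5:**
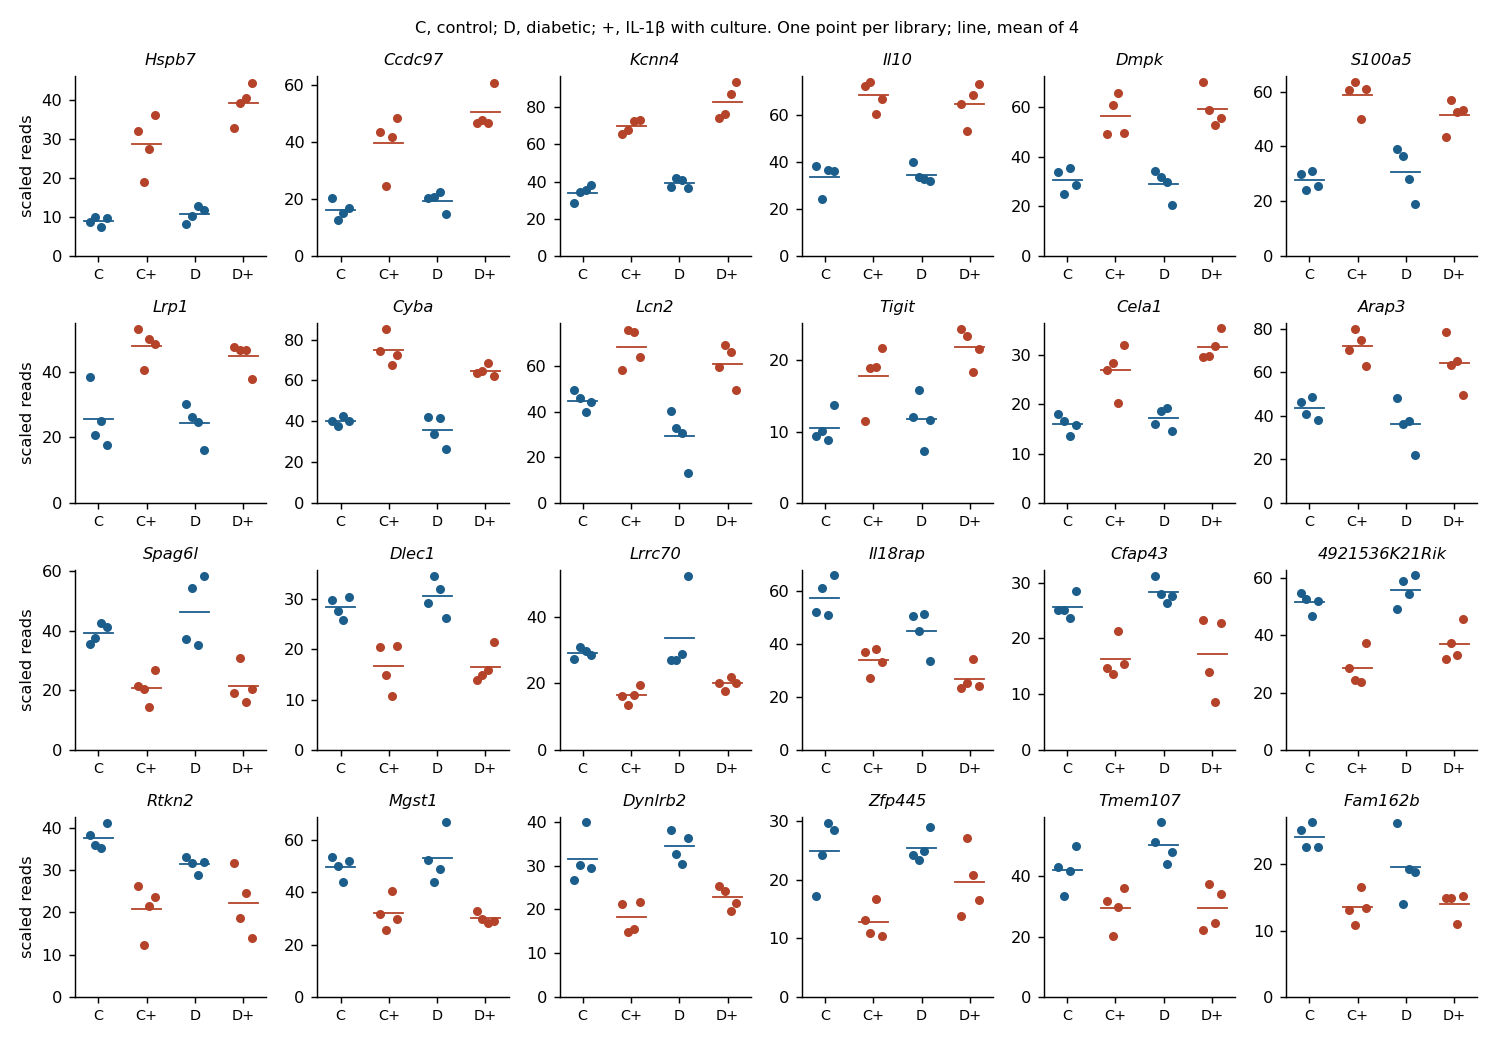
Scaled summit reads (vertical axes, from 0) at the 12 largest called rises (upper 2 lines of panels) and 12 largest called falls (lower 2 lines), 1 point per library and 1 line per group mean, for control (C) and diabetic (D) mice at baseline and with IL-1β and culture (+). Hspb7 went from 7.44 to 12.8 at baseline to 19.0 to 44.3, and Spag6l from 35.2 to 58.2 down to 14.3 to 30.8.

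IL-1β acts through its receptor on the kinases that release NF-kB, which then drives genes of its own inhibitors. In the list of NF-kB feedback genes, 15 of 19 genes had promoter-near regions, 19 in all. Of these, 5 rose and 0 fell, and 9 were higher and 0 lower at an unadjusted p below 0.05 (limma). The median log2 change was 0.16, against 0.04 over all 9942. Of all 9942, 2.77% rose and 1.46% fell, and 989 were higher and 441 lower unadjusted (14.4%). The 5 were both regions of Nfkbia (the inhibitor IκBα; 0.29 and 0.28), Relb (an NF-kB subunit; 0.30), Bcl3 (a nuclear co-factor of NF-kB; 0.52) and Birc3 (a ubiquitin ligase; 0.28). The Nfkbia region with 0.29 lay only at the far end of the gene, and the Relb region could not be placed. At Bcl3 the libraries held 28.4 to 46.3 scaled reads at baseline and 46.9 to 60.9 after IL-1β, without overlap. Scaling by background reads left none of the 5 past the threshold and gave a median of -0.11 for the list, and loess scaling kept 4 calls. Without diabetic baseline replicate 4 the list had 8 rises and 0 falls. With reads summed over all summits, Relb and 1 of the Nfkbia regions lost their calls.

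IL-1 receptor signalling genes had 19 regions at 17 of 20 genes, of which 0 rose and 2 fell (limma). At an unadjusted p below 0.05 (limma), 1 was higher and 3 were lower. Of all 9942 regions 2.77% rose and 1.46% fell, and 14.4% had such an unadjusted p. Il1r2, the decoy receptor, fell by 0.37 (adjusted p = 0.0216) from 61.1 to 120 scaled reads at baseline to 57.0 to 73.8, and Irak3, an inhibitor of the pathway, by 0.32 (adjusted p = 0.00663) from 69.0 to 93.5 to 55.7 to 71.7. Both sets overlapped, and reads were lower in 8 of 8 mice at each. Il1r2 lost its call with reads summed over all summits and without some single libraries. The median over the list was 0.05, and on the background scale 0 rose and 4 fell.

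Immediate early genes and AP-1 subunits, which respond within minutes to many stimuli, had 36 regions at 26 of 29 genes. Here 1 rose and 3 fell (limma), beside 2.77% and 1.46% of all 9942 regions. On both the background and the loess scale 0 rose and 8 fell, with the replicate block 2 rose and 5 fell, and 4 rose and 5 fell once diabetic baseline replicate 4 was left out. Fosb fell by 0.56 (adjusted p = 1.19e-05), with 70.1 to 87.3 scaled reads at baseline and 47.7 to 59.4 after IL-1β. Fos fell by 0.54 (adjusted p = 6.45e-04), with 89.7 to 121 and 54.8 to 90.7, and Nr4a1 by 0.52 (adjusted p = 0.0144). The Nr4a1 region lay only at the far end of its gene. Fosb was separate between baseline and IL-1β, while Fos overlapped by a narrow margin. Dusp2, a phosphatase of MAP kinases, rose by 0.24 (adjusted p = 0.0456), but its change was -0.027 on the background scale.

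Calls in the other functional lists are given beside the 2.77% risen and 1.46% fallen of all 9942 regions. Of the 80 ribosomal protein regions, Rpl24 alone passed, with -0.26 (adjusted p = 0.0451). Among 44 regions of RNA polymerase II genes Polr2k fell by 0.35, and among 42 of splicing factors the one shared by Pacs1 and Sf3b2 rose by 0.32. None of 31 proteasome, 25 aminoacyl-tRNA synthetase, 30 DNA replication, 14 glucocorticoid response and 21 glycolysis regions was called by limma. At an unadjusted p below 0.05 (limma) these lists had 1, 1, 2, 1 and 5 regions, where 14.4% of all 9942 regions had such a p. Diabetic baseline replicate 4 moved these counts: without it 2 proteasome, 2 synthetase, 3 DNA replication, 3 glucocorticoid response and 2 glycolysis regions rose, and 1 glycolysis region fell. Without it 5 ribosomal protein regions and 3 of RNA polymerase II genes rose as well, where 0 had done so. On the background scale 4 ribosomal protein, 5 RNA polymerase II, 4 splicing factor and 2 DNA replication regions fell, and the Pacs1 and Sf3b2 rise was lost (0.055, adjusted p = 0.758). With the replicate block 2 glycolysis regions rose. In the sterol list of 24 regions the call was the Cyba and Mvd region. List medians were 0.03 to 0.11 in these 9 lists.

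Markers of cell types were among the called regions, so values of those lists are given beside the changes. Their part in the results was not tested. Of all 9942 regions 2.77% rose and 1.46% fell. Of 13 regions at neutrophil genes, Lcn2, S100a9 (0.47, only at the far end of the gene) and Padi4 (0.44) rose and Retnlg (-0.54) fell. Their summed scaled reads ran from 459 to 819 at baseline and from 593 to 887 after IL-1β. Of 8 granulocyte-monocyte regions, Csf3r (the granulocyte colony-stimulating factor receptor; 0.59) and Spi1 (the factor PU.1; 0.29) rose and Ctsg (cathepsin G; -0.58) fell, with sums of 275 to 378 and 348 to 396. Cd68 of the monocyte list rose by 0.32, with list sums of 263 to 336 and 306 to 349 over 7 regions. Spi1 and Cd68 missed the threshold under loess (adjusted p = 0.189 and 0.0959) and on the background scale (0.928 and 0.775). S100a9, Padi4 and Csf3r missed it on the background scale alone of these scalings (adjusted p = 0.315, 0.469 and 0.202). S100a9, Padi4, Spi1 and Cd68 also lost their calls when some single libraries were left out. With reads summed over all summits, these regions and Csf3r lost their calls.

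The stem cell list, with 8 regions, had no call and summed to 240 to 347 at baseline and 242 to 304 after IL-1β. The 8 erythroid, 6 dendritic, 2 T and NK and 2 stromal regions had none either. In these 5 lists 1 region, of the dendritic list, had an unadjusted p below 0.05 (limma), and it was lower. Of all 9942 promoter-near regions 14.4% had such a p. Nfe2 of the megakaryocyte list rose by 0.26, but had -0.0068 on the background scale. The region shared by Arhgef1 and the B cell gene Cd79a rose by 0.53, or 0.26 (adjusted p = 0.175) on the background scale. Sums were 115 to 188 and 136 to 190 for 2 megakaryocyte regions, and 63.6 to 82.4 and 85.1 to 131 for 2 B cell regions.

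Start windows of called regions differed in composition from those of uncalled regions. The median ratio of observed to expected CG dinucleotides was 0.71 in 200 windows of risen regions, 0.684 in 104 windows of fallen regions and 0.815 in 8580 windows of uncalled ones. The AP-1 word TGANTCA occurred in 13% of windows in risen, 3.85% in fallen and 3.78% in uncalled regions. The PU.1 word was found in 7.50%, 8.65% and 3.02%, the E-box in 16%, 6.73% and 11.3%, and the NF-kB word in 2.50%, 2.88% and 1.05%. The NRF1 word had 8.50%, 9.62% and 16.7%. The GC box had 67.5%, 47.1% and 70.8%, and the CRE 0.5%, 3.85% and 3.89%. In risen and fallen regions the NF-kB word stood in only 5 and 3 windows, and the PU.1 word in 15 and 9. These are shares of windows with no test, and not all 14 words are given.

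The effect of IL-1β was also fitted in each phenotype. In control mice 49 promoter-near regions rose and 36 fell, against 1.78% and 0.97% of all shared regions. In diabetic mice 59 rose and 24 fell, against 2.19% and 0.641%. Without diabetic baseline replicate 4 the control counts were 230 and 76, since the groups share 1 estimate of the spread, and the diabetic counts 72 and 50. With the replicate block 156 rose and 69 fell in control mice, and 126 and 52 in diabetic mice. Kcnn4 rose by 1.04 in control and 1.08 in diabetic mice, and Spag6l fell by 0.95 and 1.11. The difference of the effect between phenotypes passed in 0 regions (0% of all shared regions, limma), with 32 higher and 82 lower at an unadjusted p below 0.05 (1.15%, against 1.67% of all shared regions). Its 95% confidence interval lay within 0.5 log2 units for 46.7% of the regions, so differences of that size were not excluded for the rest.

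Diabetic and control mice were compared in each state. At baseline 0 promoter-near regions passed (0% of all shared regions, limma), the smallest adjusted p being 0.423, and 973 were higher and 145 lower at an unadjusted p below 0.05 (11.2%, against 11.8% of all shared regions). The median log2 difference there was 0.13 over the promoter-near regions and 0.07 over all shared regions. Diabetic baseline replicate 4, the library that stood apart, belongs to this contrast, and its part in the uneven directions was not tested. After IL-1β 0 passed as well (0% of all), with 283 higher and 41 lower unadjusted (3.26%, against 4.35%). The regions of smallest p at baseline were at Tulp4, with 23.0 ± 3.85 scaled reads in control and 37.2 ± 4.81 in diabetic libraries, and Rnf121, with 40.9 ± 4.79 and 23.3 ± 8.75 (SD, n = 4 each). Intervals within 0.5 log2 units held for 67.1% of the regions at baseline and 77.2% after IL-1β.

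No summary value per library passed after adjustment. The median deposited fold of the promoter-near regions was 11.2 ± 0.402 in baseline and 10.6 ± 0.564 in IL-1β libraries (SD, n = 8). The difference of -0.61 had a p of 0.0282 in a two-sided exact permutation test within phenotype, and 0.353 adjusted over 15 tests. Median width was 724 ± 61.2 bp and 670 ± 44.9 bp, a difference of -53.8 bp (exact permutation p = 0.0706, adjusted 0.353). Summit reads over background were 57.0 ± 8.15 and 48.0 ± 8.94 (exact permutation p = 0.0486, adjusted 0.353). The log2 excess of promoter-near over other shared regions was 1.09 ± 0.12 and 1.09 ± 0.068 (exact permutation p = 0.918). Between diabetic and control libraries no raw p was under 0.2, and 4 against 4 libraries cannot give less than 0.0286 (exact permutation tests).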

How the data were processed

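ATAC-seq was measured in 16 libraries, 4 in each of 4 groups. The submitters' processing notes name the build mm10 and, without roles, MACS2 2.1.1, Bowtie2 2.2.6, Trim Galore 1.8, FastQC 0.11.3, edgeR and DiffBind 2.4.8. The sources used here do not give whether reads were shifted for Tn5 or freed of duplicates. Shifting moves summits, and removing duplicates limits reads at strong ones. Each deposited list holds, per summit, a score, a fold (a ratio over local background), a −log10 p and a −log10 q from the authors' peak caller, called per library. The deposited score was not used beyond a check, and −log10 q served as a stricter filter.

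Whole reads n and background λ were recovered from fold = (n + 1) / (λ + 1) and the Poisson p, within 0.001. Peaks were merged, and genes and 300-base start windows came from RefSeq's GRCm38.p6 tables, which share mm10 coordinates. log2 of the highest summit per region was scaled to equal medians and fitted with limma 3.58.1 (R 4.3.3, 4 group means, trended variance) on all 24955 regions, with Benjamini-Hochberg adjustment. No count model was the main test, because the lists hold recovered, not original, counts. Steps were tested on simulated data.

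Portions of 1 mouse share a number within a phenotype, and the series design says that samples were split, so the numbers pair libraries. Over the promoter-near regions, the correlation of both portions' deviations from their group means was 0.27, 0.28, -0.0022 and 0.014 for control mouse 1, 2, 3 and 4, and 0.34, 0.25, -0.093 and 0.24 for diabetic mouse 1, 2, 3 and 4. Libraries with different numbers gave -0.293 to 0.179 within control and -0.278 to 0.290 within diabetic mice. Only control mice 1 and 2 and diabetic mouse 1 lay above these ranges, so the pairing rests on the numbers and the series design. P-values measure the spread between these mouse samples.

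The regions, the naming rule and the 22 gene lists were chosen with earlier results of these data known. Named were the 12 largest called rises and falls, called regions at listed genes, the 5 regions each with most reads, width and summits, and the 5 smallest p per phenotype contrast, of which 2 are given. Alternatives were other scalings, fits, gene-end windows, filters and left-out libraries. The promoter table is not complete, and starts it does not list were not placed.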

Additional observations from a re-analysis of the deposited data

Results flagged for a closer look

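Groups of 4 libraries were searched for 1 library far from the other 3, in 26 named regions and 5 values per library. Of 124 groups 5 were marked, and chance marks about 1 in 20. Ccdc97 had 60.8 scaled reads in diabetic IL-1β replicate 4, with 46.6 to 47.7 in the other 3. Lrp1 had 37.99 in the same library, with 46.6 to 47.7 in the others. Il10 had 24.2 in control baseline replicate 2, with 36.3 to 38.5 in the others. Lrrc70 had 52.3 in diabetic baseline replicate 4, with 27.1 to 28.8 in the others. Fam162b had 11.04 in diabetic IL-1β replicate 3, with 14.9 to 15.2 in the others.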

How the results depend on the processing

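Of 546 recomputed summary values 499 stayed within their tolerance, and 47, all counts of called regions, moved. Counts are given as rose and fell. Scaling by background reads gave 12 and 574 for IL-1β against baseline (275 and 145 as reported), 1 and 21 in control mice (49 and 36) and 3 and 12 in diabetic mice (59 and 24); the cause was not tested. Cyclic loess moved the falls, to 272, 56 and 51. The replicate block gave 503 and 239, 156 and 69, and 126 and 52, and 0 for the difference between phenotypes; it ended no call of a named region. Summing reads over all summits gave 179 rises and 157 falls, with 120 and 82 of the reported calls, and regions at a listed start alone held 93 falls, being fewer regions. With 1 library left out, counts ran from 180 to 1028 and 93 to 235 over both phenotypes, 22 to 230 and 9 to 76 in control mice, and 24 to 103 and 11 to 50 in diabetic mice. The highest counts came without diabetic baseline replicate 4, except the 103, without diabetic baseline replicate 1. Within a phenotype a count moved by over 1.5 times without each of its own 8 libraries, other than control baseline replicate 1. On the background scale 14 of 60 named regions changed sign, 3 of them called rises, Sp3 (-0.025), Dusp2 (-0.027) and Nfe2 (-0.0068). Of 48 named calls 17 were lost there, 5 under loess and 15 with summed reads. The 15 were at Cd68, Csf3r, Dusp2, Il1r2, Lrp1, Nfe2, 1 of the Nfkbia regions, Padi4, Polr2k, Relb, Rpl24, S100a9, Sp3, Spi1 and Tigit. Over the fits without 1 library 0 to 10 were lost, and 37 were kept in each of these fits. Those lost at least once were at Cd68, Dusp2, Il1r2, Nfe2, 1 of the Nfkbia regions, Padi4, Polr2k, Rpl24, S100a9, Sp3 and Spi1. The phenotype contrasts gave 0 calls under every alternative run. Depth is known only through background reads, which moved all log2 changes by -0.27, so the sign of a rise smaller than that rests on the scaling.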
